A study of Rattus norvegicus with 8 samples.

Results

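Major histocompatibility complex (MHC) antigen presentation was followed through 5 rat genes, chosen by their Ensembl identifiers: B2m (ENSRNOG00000017123), Cd74 (ENSRNOG00000018735), RT1-Da (ENSRNOG00000032844), RT1-Ba (ENSRNOG00000000451) and RT1-Bb (ENSRNOG00000032708). The count table lists all 5 among 32883 identifiers, and 12612 of these were detected in any library. They were compared between spinal cord of 4 injured and 4 uninjured Sprague Dawley rat samples. Injured rats had a hemisection, in which one lateral side of the cord is severed, at thoracic level 9, and their tissue was collected 4 days later. Uninjured rats had no spinal cord injury, and the labels do not say whether they had sham surgery. The tissue is upper lumbar cord in the title of the series and upper spinal cord in the sample labels. The comparison asks how transcripts of the sampled cord differ between injured and uninjured rats. Whether that level of the cord was itself spared was not tested. The labels do not give sex, age or the number of animals behind each library, so that p-values rest on the spread of these libraries alone, part of which may be technical.

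MHC class I molecules display peptides from inside the cell on nearly all nucleated cells, and each consists of a heavy chain held by the light chain beta-2-microglobulin, the product of B2m. Class II molecules display peptides taken up from outside and are formed by an alpha and a beta chain. RT1-Da encodes an alpha chain of the rat D molecule, and RT1-Ba and RT1-Bb encode the alpha and the beta chain of the rat B molecule. Cd74 encodes the invariant chain, which fills the peptide groove of new class II molecules and guides them to the endosome. In the central nervous system class II genes are low at rest. Reactive microglia, perivascular macrophages and infiltrating immune cells are known for expressing class I and class II genes. Class II chains and the invariant chain share the transactivator CIITA, and class I genes and B2m its relative NLRC5. These act through a promoter module of S, X and Y boxes.

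Because these genes are known to share that module, the promoter stretches that hold the motif matches are shown for all 5, as RefSeq gives them for assembly GRCr8, a later build than the Rnor_6.0 used for the counts. Each runs 5′ to 3′ on the strand of its gene, and capitals mark every match of a searched motif, overlapping matches being joined.
B2m (chr3:129549155-129549295, plus strand): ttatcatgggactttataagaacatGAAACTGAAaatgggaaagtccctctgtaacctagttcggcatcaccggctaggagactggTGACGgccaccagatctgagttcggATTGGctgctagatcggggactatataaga
Cd74 (chr18:56526992-56527046, plus strand): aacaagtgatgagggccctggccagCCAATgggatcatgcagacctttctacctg
RT1-Da (chr20:4515339-4515395, plus strand): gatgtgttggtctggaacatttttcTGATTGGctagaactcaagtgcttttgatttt
RT1-Ba (chr20:4576963-4577043, plus strand): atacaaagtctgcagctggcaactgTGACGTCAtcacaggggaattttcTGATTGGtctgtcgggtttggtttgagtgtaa
RT1-Bb (chr20:4604150-4604315, minus strand): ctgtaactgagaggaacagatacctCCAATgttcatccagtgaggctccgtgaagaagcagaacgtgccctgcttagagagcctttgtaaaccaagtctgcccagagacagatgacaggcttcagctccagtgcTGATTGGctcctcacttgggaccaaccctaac

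Both strands of the 300 bases from 250 before to 50 after each gene start were searched for TGATTGG, the core of the Y box. TGATTGG contains the reverse complement of the CCAAT box. It was present in 3 of the 5 windows, those of the class II chains, and in 7.06% of 33469 RefSeq promoter windows of the same length. It began 51 bases before the start of RT1-Da, 45 before that of RT1-Ba and 63 before that of RT1-Bb. B2m held a CCAAT box on the opposite strand, 64 to 60 bases before its start, and Cd74 one on its own strand, 189 to 185 bases before. CCAAT alone was common, in all 5 windows and in 37.5% of all windows. TGACG, found in the X2 box and in cyclic AMP response elements, was present in B2m, 89 bases before the start, and on both strands of RT1-Ba, where the matches overlap, against 21.2% of all windows. GAAANNGAA, an element of interferon regulatory factors, was present in B2m only among the 5, 150 bases before the start, and in 9.71% of all windows. A match is a description of the letters and not a measurement of binding.

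**Figure D1:**
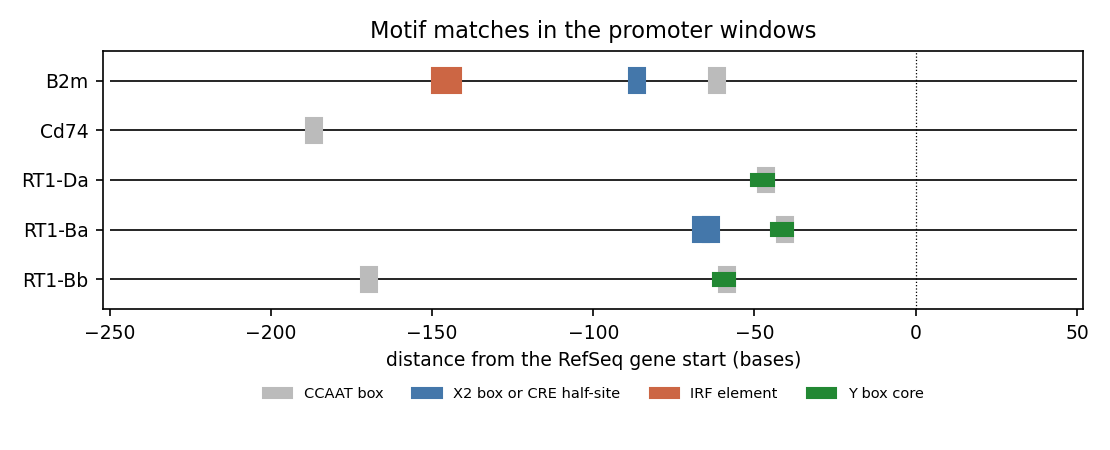
Motif matches (coloured boxes) along the promoter window of each gene, by distance in bases from the RefSeq gene start (dotted line). The Y box core lies between 63 and 39 bases before the start in RT1-Da, RT1-Ba and RT1-Bb, and the interferon regulatory factor element appears in B2m alone.

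CEL-Seq2, the library method, tags transcripts at their 3′ ends with unique molecular identifiers (UMIs), and values are raw UMI counts per gene. Library totals ran from 195113 to 320199 UMIs in injured and from 112264 to 221177 in uninjured cord (two-sided exact permutation p = 0.0571, where 0.0286 is the smallest possible), so that low genes were less easily seen in uninjured cord. Levels below are UMI counts scaled to a library total of 1000000 (CPM). Intervals of a single library are 95% exact binomial (Clopper-Pearson) intervals and cover counting error only. For a count of 0 the limit of 3 UMIs of the total is given instead, which is lower than the upper end of such a two-sided interval. Libraries of the same title number deviated together from their group means, and the number was therefore also fitted as a pair term, the replicate block. No other identifier of the table is paired with a name in the sources used here, so neither markers of spinal cord, microglia or infiltrating cells nor other genes of the class I and class II pathways were analysed here.

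B2m, the class I light chain, held by far the most UMIs of the 5 and was higher in injured cord. It was counted 692, 795, 644 and 394 times in injured libraries 1 to 4 and 264, 95, 234 and 202 times in uninjured libraries 1 to 4. Scaled to the library total, these were 2536, 2483, 2539 and 2019 CPM in injured cord. In uninjured cord they were 1194, 846, 1740 and 1485 CPM. Every injured library thus lay above every uninjured library, the nearest being injured 4 (interval 1825 to 2229) and uninjured 3 (1524 to 1977), whose intervals overlapped. The group means were 2394 ± 251 and 1316 ± 385 CPM (SD, n = 4), a 1.82-fold difference (two-sided exact permutation p = 0.0286, the smallest possible with 4 against 4, not adjusted over the 5 genes so tested). B2m transcripts made up 0.202% to 0.254% of all UMIs in injured libraries and 0.0846% to 0.174% in uninjured ones. The same complete separation with injured cord above was seen for 7.52% of the 3073 genes tested across the whole table.

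**Figure D2:**
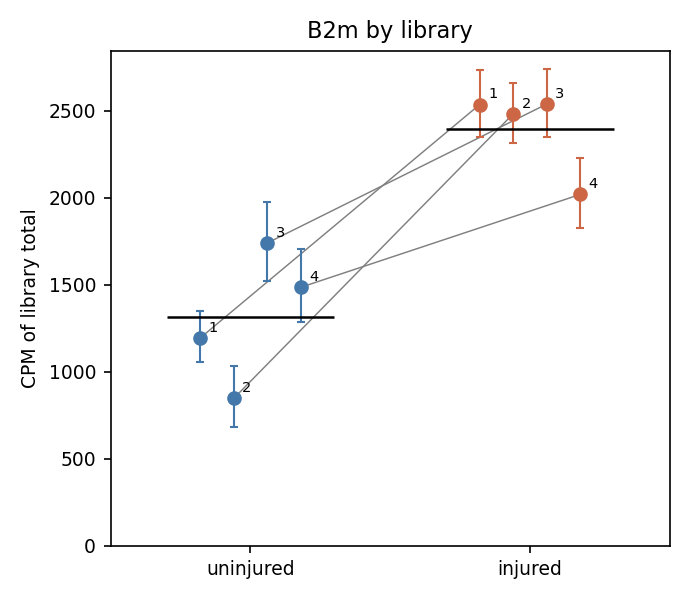
B2m level in CPM of the library total, for uninjured (blue) and injured (orange) libraries. Points are libraries labelled with their title number, vertical bars are 95% exact binomial intervals, black lines are group means and grey lines join libraries of the same number. The 4 injured libraries sit between 2019 and 2539 and the 4 uninjured ones between 846 and 1740.

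In the test across all genes (edgeR quasi-likelihood, TMM scaling), the result for B2m depended on whether libraries were compared within their numbers. Without the pair term its log2 fold change was 0.71 (SE 0.24, edgeR adjusted p = 0.144), which did not pass the 0.05 threshold. That fit called 2.28% of the 3073 tested genes higher. With the replicate block B2m rose by 0.77 on the log2 scale (SE 0.16, edgeR adjusted p = 0.00288), a 1.7-fold change, and 6.77% of the tested genes were called higher. Without pair 1 the blocked call was lost (log2 fold change 0.67, edgeR adjusted p = 0.0527), and without pair 2, 3 or 4 it was kept, at 0.57, 0.90 and 0.93. The median log2 fold change over the tested genes was -0.03 with TMM and 0.09 with library totals alone. Under library totals, the scaling of the levels above, the log2 fold change of B2m was 0.86 (SE 0.23, edgeR adjusted p = 0.0404) and 3.42% of tested genes were called higher.

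Every injured library lay above every uninjured one, so any pairing gives more B2m in the injured library in 4 of 4 pairs. That outcome adds nothing to the separation. Of the tested genes, 20.7% were higher in injured cord in all 4 numbered pairs. The B2m ratio of injured to uninjured level was 2.12 in pair 1, 2.93 in pair 2, 1.46 in pair 3 and 1.36 in pair 4. These ratios differed mainly through the uninjured side, where the coefficient of variation was 29.2% against 10.5% in injured cord. Uninjured 2, the smallest library of all, had the lowest B2m level, and leaving it out gave the lowest log2 fold change without the pair term, 0.53 (SE 0.24, edgeR adjusted p = 0.381). The part of library depth in this was not tested. All libraries were also thinned to the smallest total, by a random draw that was not repeated. Every injured library was still above every uninjured one in B2m, and the means differed by 946 CPM (two-sided exact permutation p = 0.0286). In the edgeR test on the thinned counts, without the pair term, the log2 fold change was 0.63 (SE 0.24, edgeR adjusted p = 0.202), which did not pass the threshold.

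**Figure D3:**
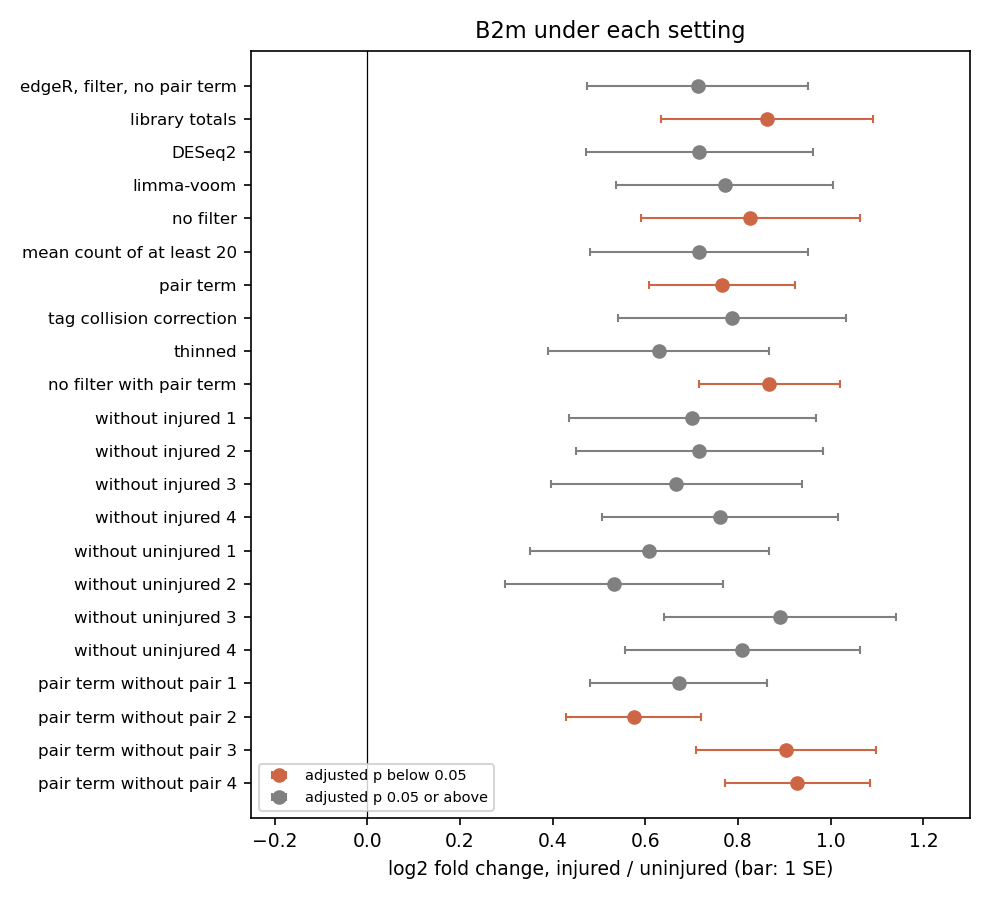
Log2 fold change of B2m, injured over uninjured, with 1 SE (horizontal bars), under each setting of the test; pair term stands for the replicate block. Orange points have an adjusted p below 0.05 and grey points do not. All 22 values are above 0, from 0.53 to 0.93, and 7 of the 21 alternatives to the first line pass the threshold.

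B2m ranked 49 among all genes by mean UMI count, with 415 UMIs per library. Among the 3073 tested genes, 54 were at least as abundant, B2m included, on the scale of CPM. Without the block, their median log2 fold change was -0.23, and 5 of them, B2m included, had a log2 fold change at least that of B2m. That fit called 3 of the 54 higher, B2m not among them, against 70 of all 3073 tested genes. With the replicate block, 6 of the 54 were called higher, B2m among them, and 18 lower, against 208 and 140 of all 3073 tested genes. Of the 208 genes called higher with the block, B2m was 6th by abundance, while its change was below their median log2 fold change of 1.12. Over all tested genes, 247 (8.04%) had a log2 fold change at least as large without the block. With the block, B2m was therefore among the most abundant of the genes called higher, with a smaller change than their median. Without the block it was not called. That median is over genes chosen by their calls in these same data, and is given as a description. No count in the table exceeded 4047, just under the number of different tags of 6 bases, and with such tags counts of this size would miss repeated tags. The highest B2m count would then be 884 rather than 795, and with all counts corrected in this way the log2 fold change was 0.79 (SE 0.25, edgeR adjusted p = 0.118, without the block). The median and calls given above for the 54 abundant genes are from uncorrected counts, and what missed tags did to them was not tested.

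**Figure D4:**
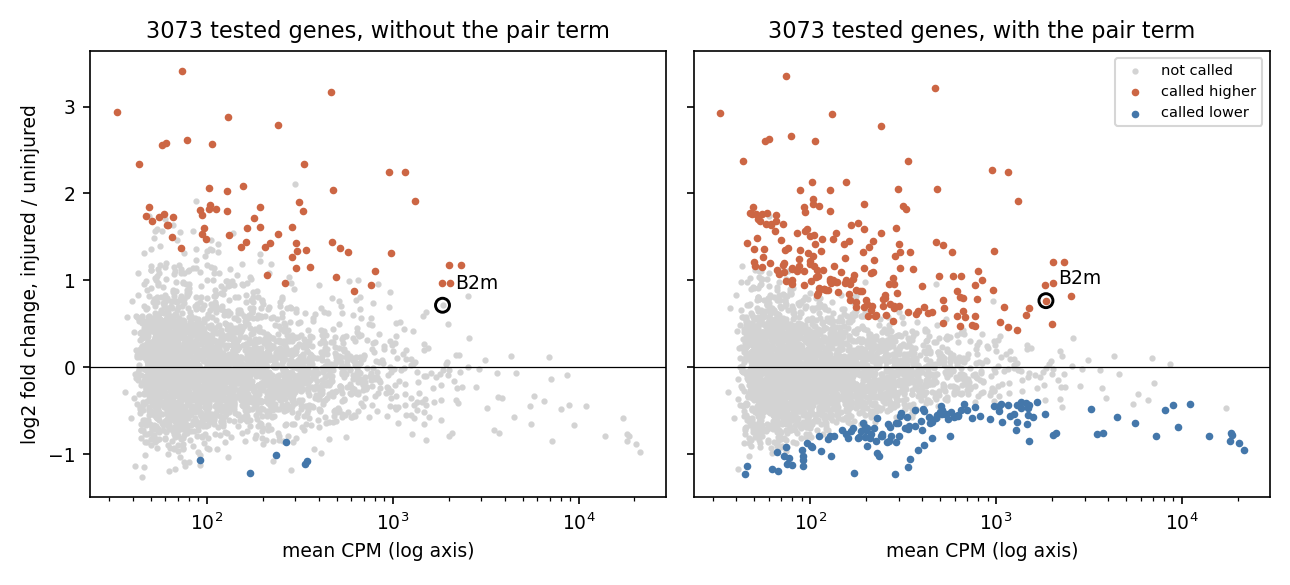
Log2 fold change of the 3073 tested genes against their mean CPM (log axis), from the fits without (left) and with (right) the pair term, the replicate block. Genes with edgeR adjusted p below 0.05 are orange (higher) or blue (lower), and the circle marks B2m, at 0.71 on the left and 0.77 on the right.

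The invariant chain and the class II chains had few UMIs in these libraries, and whether reads of their 3′ ends fell outside the gene models used for counting, Cd74 included, was not tested. Together Cd74, RT1-Da, RT1-Ba and RT1-Bb held 28, 16, 16 and 7 UMIs in injured libraries 1 to 4 and 5, 0, 5 and 3 in uninjured libraries 1 to 4. That is 67 of 1041860 UMIs in injured and 13 of 603934 in uninjured cord. None of the 4 passed the filter on low counts, so only B2m of the 5 entered the main test. The limit that a count of 0 allows, 3 UMIs of the total, is 9.37 to 15.4 CPM in injured and 13.6 to 26.7 in uninjured libraries.

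Cd74 was counted 5, 7, 5 and 6 times in injured libraries 1 to 4 and 1, 0, 0 and 1 times in uninjured libraries 1 to 4. These were 18.3, 21.9, 19.7 and 30.8 CPM in injured cord. In uninjured cord they were 4.52 and 7.35 in libraries 1 and 4, while the counts of 0 in libraries 2 and 3 allow up to 26.7 and 22.3. All 4 injured values lay above all 4 uninjured ones, as for 3.13% of the 9539 genes with a UMI that failed the filter. Only the 4317 of these genes (45.3%) with UMIs in every injured library could separate in this way, so 3.13% understates how common it was among them. The means were 22.7 ± 5.59 and 2.97 ± 3.62 CPM (SD, n = 4; two-sided exact permutation p = 0.0286, the smallest possible). Pooled within groups, 23 UMIs against 2 gave a ratio of 6.67 with a counting interval of 1.65 to 58.3. At the injured rate the uninjured libraries together would have held 13.3 Cd74 UMIs. Single uninjured libraries were barely deep enough to show the difference. The intervals of uninjured 1 and 4 reached 25.2 and 41.0 CPM, above the injured mean. For the counts of 0 in uninjured 2 and 3, the limits of 3 UMIs were 26.7 and 22.3 CPM. These limits are lower than the upper ends of two-sided intervals. That 22.3 lay just below the injured mean therefore does not set uninjured 3 apart. In the edgeR test without the filter, over 12612 genes, the log2 fold change of Cd74 was 2.53 (SE 0.82, adjusted p = 0.0863), or 2.55 with the replicate block (adjusted p = 0.0797), and the threshold was not passed. That test called 1.78% of genes higher, and 2.03% with the block. B2m passed it (log2 fold change 0.83, edgeR adjusted p = 0.0312).

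RT1-Da, the alpha chain of the D molecule, did not separate the groups. It was counted 14, 9, 9 and 1 times in injured libraries 1 to 4 and 3, 0, 4 and 2 times in uninjured libraries 1 to 4. The injured levels were 51.3, 28.1, 35.5 and 5.13 CPM. The uninjured levels were 13.6, 0, 29.7 and 14.7, so that injured 4 lay below 3 of the 4 uninjured libraries and injured 2 below uninjured 3. The means were 30.0 ± 19.2 and 14.5 ± 12.2 CPM (SD, n = 4; two-sided exact permutation p = 0.257). The pooled counts of 33 and 9 gave a ratio of 2.13, with a counting interval of 0.995 to 5.05. Without injured 1 the difference of means went from 15.5 to 8.40 CPM, and without injured 4 to 23.8 CPM (two-sided exact permutation p = 0.429 and 0.0857). In the edgeR test without the filter the log2 fold change was 1.01 (SE 0.56, adjusted p = 0.616).

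The chains of the B molecule were at the limit of detection. RT1-Ba was counted 3, 0, 1 and 0 times in injured libraries 1 to 4 and 1, 0, 0 and 0 times in uninjured ones. RT1-Bb was counted 6, 0, 1 and 0 times in injured libraries 1 to 4 and 0, 0, 1 and 0 times in uninjured ones. Injured 1 thus held 3 of the 4 injured RT1-Ba UMIs and 6 of the 7 injured RT1-Bb UMIs. The pooled ratios were 2.32 (counting interval 0.229 to 114) for RT1-Ba and 4.06 (0.521 to 183) for RT1-Bb. The exact permutation test gave p = 0.714 for each (two-sided), and a difference between groups was not detectable at this depth. Without injured 1, the difference of mean levels, injured minus uninjured, was 0.184 CPM for RT1-Ba and -0.545 for RT1-Bb.

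**Figure D5:**
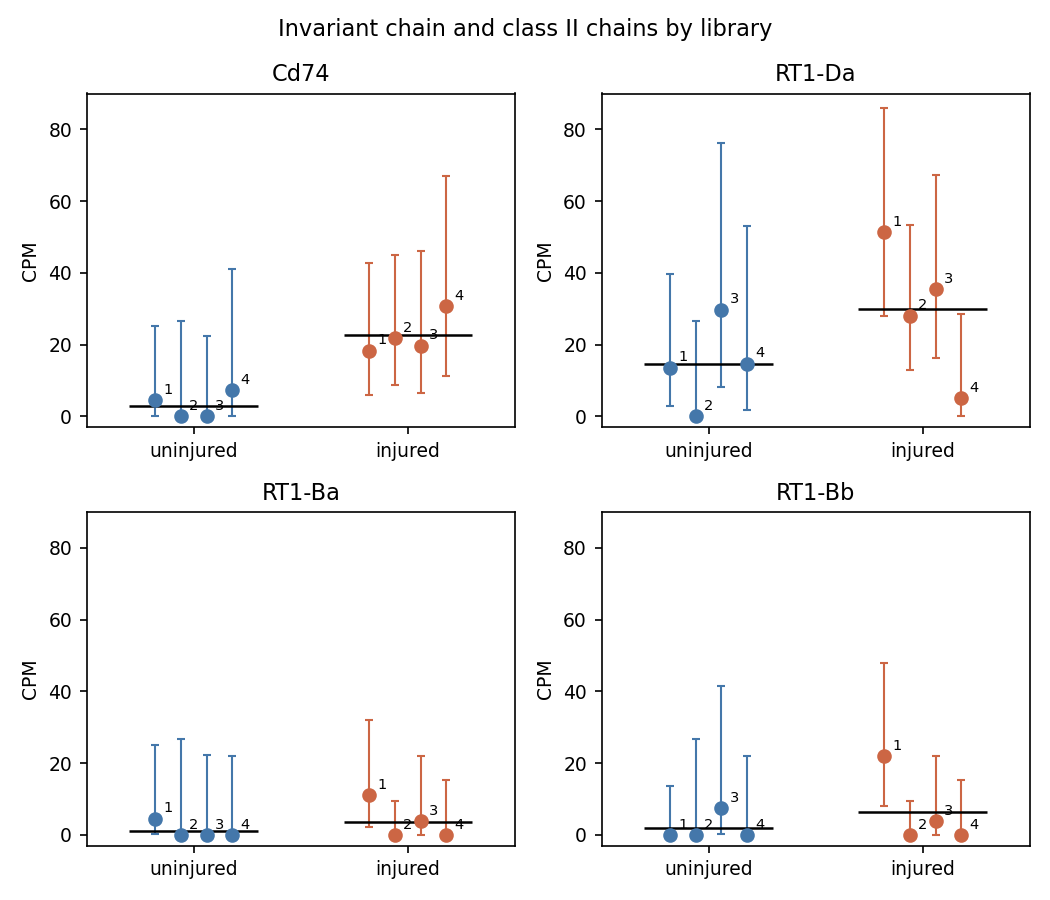
Levels of Cd74, RT1-Da, RT1-Ba and RT1-Bb in CPM of the library total, for uninjured (blue) and injured (orange) libraries. Points are libraries labelled with their title number, vertical bars are 95% exact binomial intervals (for a count of 0, up to the limit of 3 UMIs) and black lines are group means. The Cd74 points separate the groups, at 18.3 to 30.8 against 0 to 7.35, while those of the other 3 genes overlap.

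The 4 rare genes did not share one order of libraries. All 3 class II chains were highest in injured 1, at 84.3 CPM together, against 28.1, 43.4 and 5.13 in injured 2 to 4. Cd74 was instead highest in injured 4, where the chains were lowest, with 6 Cd74 UMIs beside 1 UMI of RT1-Da and 0 of the B chains. Among uninjured libraries, the chains together were highest in library 3, at 37.2 CPM, where Cd74 was at 0. With at most 14 UMIs of any of these genes in a library, these orders lie within wide counting intervals and are a description. In bulk tissue, a change in the number of cells that express these genes cannot be told apart from a change in RNA per cell.

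The rat MHC holds several closely related class II genes, and the outbred rats can carry alleles that differ from the reference, so reads of RT1-Da, RT1-Ba and RT1-Bb could be split between copies or lost in alignment. Neither was tested. Likeness to B2m was taken as the correlation over the 8 libraries of deviations from the group mean on the log2 scale, among 1715 tested genes with a mean count of at least 20. The most similar genes, ENSRNOG00000042838 (Pearson r 0.941, Spearman rho 0.976) and ENSRNOG00000000007 (r 0.929, rho 0.929), were not called between groups (edgeR adjusted p = 0.652 and 0.579). Their log2 fold changes without the block were 0.64 and -0.59. These values were the highest of many, come from libraries whose numbers vary together, and are given as a description.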

How the data were processed

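The authors deposited whole-number UMI counts by Ensembl gene, with no normalization. The submitters' processing notes name the build Rnor_6.0, HISAT2 2.0.4 and HTSeq 0.6.0. The annotation release, UMI collapsing and use of strand are not stated. Column codes match those in the sample titles, and 0 columns were unmatched. The names of the 5 identifiers came with the list that defined them, and RefSeq promoters (GRCr8) were matched by symbol for all 5. The members and lists were chosen with earlier results of these data known.

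The fits used edgeR 4.0.16 (R 4.3.3). Genes passing filterByExpr (minimum count 10, minimum total 15) numbered 3073, with 89.0% of UMIs. glmQLFit and glmQLFTest compared injured with uninjured over all 8 libraries after TMM scaling, with Benjamini-Hochberg adjusted p below 0.05. The fit was also run on simulated data, with and without the block. Those data held no pair effect, so the block was not tested on paired data. Levels are CPM of library totals, compared by exact permutation tests. Library totals were 112264 to 320199 UMIs, at which the interval of a B2m level spans about 7.01% to 20.7% of it on either side.

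Injured and uninjured libraries share the title numbers 1 to 4. Same-number correlations of deviations from the group mean over the tested genes were 0.389, 0.297, 0.342 and 0.423, all over 0.1, so the numbers were taken as pairs from the data, since no label calls them so. Alternatives were the replicate block, library totals alone, DESeq2 1.42.0, limma-voom (limma 3.58.1), other filters, thinning, a tag correction and leaving out libraries. The rule for named genes took all 5 members and the genes most correlated with B2m and Cd74, and could not be applied to Cd74, which failed the filter. The 13 gene lists fixed by symbol were not analysed because no table pairs their symbols with identifiers.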

Additional observations from a re-analysis of the deposited data

Results flagged for a closer look

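In 3 of 12 sets of 4 libraries examined (5 genes and the library total, in each group), 1 library lay far from the other 3. Chance flags about 1 in 20 sets of continuous values, a rate that does not hold for sets with 1 UMI in all. B2m in injured 4 was low, at 2019 CPM against 2483 to 2539 in the other 3 injured libraries. This flag holds for CPM of library totals. On the log2 scale with TMM, B2m deviated from the injured mean by 0.04, -0.0005, 0.12 and -0.16 in injured 1 to 4. There injured 4 was still lowest but stood less far apart. RT1-Ba in uninjured 1, at 4.52 CPM, and RT1-Bb in uninjured 3, at 7.44, each rest on 1 UMI beside 3 libraries at 0.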

How the results depend on the processing

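B2m stayed higher in injured cord in 21 of 21 alternatives (log2 fold change 0.53 to 0.93) and passed the threshold in 7. These were library totals (0.86), no filter (0.83) and the replicate block (0.77). The others were the block without pair 2 (0.57), 3 (0.90) or 4 (0.93) and, added after seeing the data, no filter with the block (0.87). Why these settings passed was not tested. The SE was 0.16 with the block, 0.23 with library totals and 0.24 without the filter, against 0.24 in the main test. Shares of UMIs kept their direction in 11 of 11 alternatives each for B2m, Cd74, RT1-Da and RT1-Ba. Of these, 8 leave out 1 library, which cannot undo a complete separation of the groups, so that p for B2m and Cd74 says nothing of stability there. RT1-Bb, with no call, changed sign in 1, without injured 1, as did the log2 fold changes of RT1-Ba and RT1-Bb without the filter. All alternatives for these shares, and those for the other 4 genes without the filter, were added after seeing the data. Without the filter, edgeR and DESeq2 called none of Cd74, RT1-Da, RT1-Ba and RT1-Bb (unadjusted p = 0.00196 in edgeR and 0.0258 in DESeq2 for Cd74, above 0.05 for the others). DESeq2 gave them no adjusted p.

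Over all tested genes, 70 higher and 6 lower became 225 and 13 without a filter, 208 and 140 with the replicate block, 46 and 3 after thinning, 113 and 30 at adjusted p below 0.10, and 31 and 0 at 0.01 (edgeR, 180 lower at an unadjusted p under 0.05). Lower genes became 3 with library totals, 19 with DESeq2 and 10 at a mean count of at least 20. With the block, leaving out pair 1, 2, 3 or 4 gave 47, 91, 63 or 202 lower genes and 95, 158, 144 or 318 higher. Fits on 7 libraries called 38 to 115 genes higher and 0 to 15 lower (0 without injured 1, edgeR, 139 lower at an unadjusted p under 0.05).

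Depth limits the class II genes: by the limit of 3 UMIs, a count of 0 allows up to 26.7 CPM in uninjured 2 and 22.3 in uninjured 3. Both lie near the mean injured level of Cd74 (22.7), and the upper ends of two-sided intervals would be higher.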
